A study of Mus musculus with 16 samples.

Results

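The chemokine receptors Ccr1, Ccr3, Ccr6, Ccr8, Ccr9 and Xcr1 were followed in mouse colonic mucosa. They were chosen by name from a real-time PCR panel, where they made up 6 of 584 genes and 8 of 648 assays, since Ccr3 and Ccr8 had a pair of assays each. The panel, the OpenArray Mouse Inflammation Panel, was read in 16 samples. There were 4 groups of 4 samples. Healthy mice received buffer (PBS) both into the rectum and by mouth. The DNBS group received dinitrobenzene sulfonic acid, a hapten used to induce colitis, into the rectum and PBS by mouth. The DNBS_CEC group received DNBS and oral CEC, an abbreviation that the labels leave unexplained, and the DNBS_Nissle group received DNBS and oral Nissle, a name carried by a probiotic Escherichia coli strain. Every group other than healthy therefore carried DNBS. Strain, age, sex, doses and times were not given in the sources used here. The series text speaks of pooling RNA of the mice, so a sample may be 1 mouse or a pool, and p-values measure only the spread between samples.

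Chemokine receptors are G-protein-coupled receptors that steer leukocytes along gradients of chemokines, the small proteins secreted by epithelium, stroma and other leukocytes. Each receptor is carried by certain leukocytes, so its RNA in a tissue depends both on which cells are present and on how much each of them makes. In bulk mucosa, fewer cells of a type and less RNA per cell cannot be told apart. In the gut these receptors are known for drawing neutrophils and monocytes (Ccr1), eosinophils (Ccr3), T-helper cells that make interleukin-17 and cells of lymphoid follicles (Ccr6), regulatory and type-2 helper T cells (Ccr8), lymphocytes homing to the intestine (Ccr9) and cross-presenting dendritic cells (Xcr1).

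The deposited values are raw cycle thresholds (Ct), the PCR cycle at which an assay becomes visible. The level used here, -ΔCt, subtracts the Ct of a gene from the average Ct of 13 reference genes, in log2 units, so that a higher (less negative) value means more RNA. Assays differ in efficiency, so the levels of different genes do not rank their RNA. Between 528 and 564 assays were detected per sample, at a Ct of 28 or less, and the reference mean lay between 18.7 and 20.1 cycles. The epithelial keratin Krt8 was detected in all 16 samples, at -ΔCt between 2.85 and 4.72 in 15 of them and at 0.71 in DNBS_Nissle sample 4. Healthy sample 3 and DNBS_Nissle sample 1 stood apart in the table, with 57 and 61 values that matched the average of their group's other 3 samples and were read as filled-in gaps, against at most 12 elsewhere. Only 1 such value lay in an assay of the 6 receptors, that of the second Ccr3 assay in DNBS_Nissle sample 1.

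All 6 receptors gave a signal in the colon. Their levels come from assays inside a single exon, which can also read genomic DNA. Detection alone therefore does not establish receptor RNA. Ccr1, Ccr6, Ccr9 and Xcr1 were detected in 16 of 16 samples and Ccr3 and Ccr8 in 15, neither of them in DNBS_Nissle sample 1, where they were entered at the detection limit. No receptor passed the test in any of the 7 comparisons (limma, Benjamini-Hochberg adjusted p under 0.05 over 458 to 475 genes). The receptors fell into 2 kinds of pattern. Ccr1 was higher in the mean of the DNBS and DNBS_Nissle samples than in healthy and DNBS_CEC ones, with a within-group SD of 0.48. The other 5 had within-group SDs of 1.08 to 1.63 and each had its lowest sample in the DNBS_Nissle group.

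**Figure D1:**
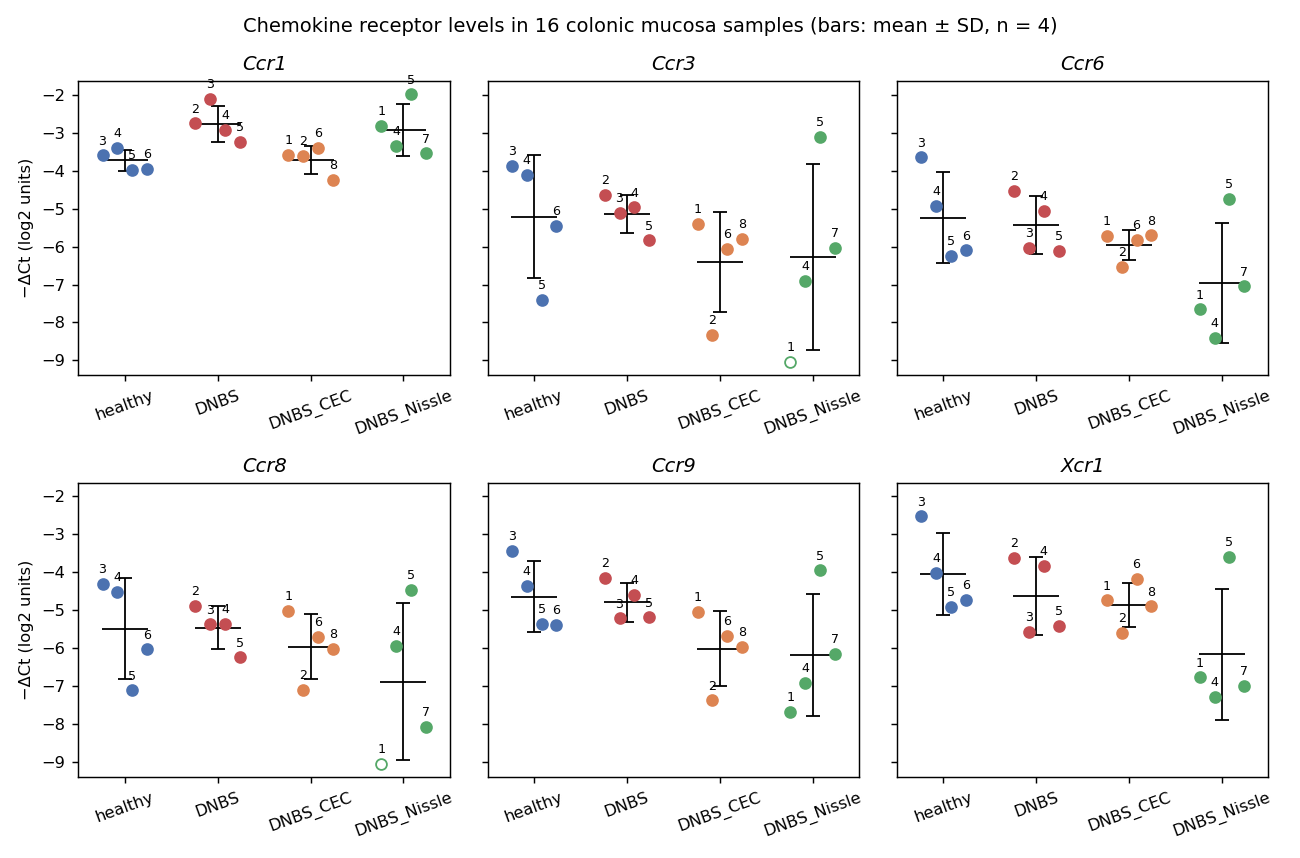
Level of each receptor (-ΔCt, log2 units, vertical axis) in the 4 groups; each point is 1 sample with its number, the bar and whiskers are the mean ± SD of 4 samples, and open points were not detected and stand at the detection limit. Ccr1 in the DNBS samples lies above all healthy and DNBS_CEC samples, while for Xcr1 DNBS_Nissle samples 1, 4 and 7 lie below every healthy sample and sample 5 does not.

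Ccr1 binds Ccl3, Ccl5, Ccl7 and related chemokines and is carried by neutrophils and monocytes. Its -ΔCt was -3.60, -3.39, -3.99 and -3.95 in healthy samples 3, 4, 5 and 6, and -2.76, -2.12, -2.94 and -3.26 in DNBS samples 2, 3, 4 and 5. All 4 DNBS samples lay above all 4 healthy ones, the nearest pair being DNBS sample 5 and healthy sample 4. In DNBS_CEC samples 1, 2, 6 and 8 the values were -3.60, -3.61, -3.40 and -4.25, all below the lowest DNBS sample. In DNBS_Nissle samples 1, 4, 5 and 7 they were -2.82, -3.36, -1.99 and -3.55, which overlapped every other group, and sample 5 held the highest Ccr1 value of the 16.

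The group means of Ccr1 were -2.77 ± 0.48 for DNBS, -2.93 ± 0.70 for DNBS_Nissle, -3.71 ± 0.37 for DNBS_CEC and -3.73 ± 0.29 for healthy (mean ± SD, n = 4). The first pair and the last pair of this order lay closer together than their SDs. DNBS exceeded healthy by 0.97 ± 0.37 (± SE, 1.96-fold), with an interval of 0.18 to 1.75 at the 95% level and a limma adjusted p of 0.333. DNBS_CEC lay 0.95 ± 0.37 under DNBS on the same scale, with a limma adjusted p of 0.99, and DNBS_Nissle lay 0.80 ± 0.37 above healthy, with 0.298, and 0.49 above it without DNBS_Nissle sample 5. DNBS_CEC and healthy differed by 0.02 ± 0.37, an interval from -0.76 to 0.80. That small difference turned negative under 7 settings other than leaving out a sample, down to -0.33 with the 3 least variable reference genes.

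Ccr1 was the 23rd of 458 genes by p in DNBS against healthy and the 4th of 475 in DNBS_CEC against DNBS. Its groups did not overlap in either comparison. Over all genes tested, 8.52% did not overlap between DNBS and healthy and 0.632% between DNBS_CEC and DNBS. No receptor separated the groups of the other 4 pairs, in which 3.27% of genes (DNBS_CEC against healthy), 13.8% (DNBS_Nissle against healthy), 1.05% (DNBS_Nissle against DNBS) and 1.91% (DNBS_CEC against DNBS_Nissle) did not overlap.

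Ccr9, the receptor of Ccl25 that brings lymphocytes to the intestine, was at -3.44, -4.37, -5.36 and -5.39 in healthy samples 3 to 6. It was at -4.16, -5.22, -4.61 and -5.19 in DNBS samples 2 to 5, and at -5.03, -7.38, -5.68 and -5.97 in DNBS_CEC samples 1, 2, 6 and 8. The DNBS_Nissle samples 1, 4, 5 and 7 read -7.68, -6.90, -3.95 and -6.14. Both groups given an oral agent thus had lower means (-6.01 ± 0.99 and -6.17 ± 1.61) than healthy (-4.64 ± 0.93) and DNBS (-4.79 ± 0.51), but DNBS_Nissle sample 5 was above 3 of the 4 healthy samples. The difference from healthy was -1.37 ± 0.70 for DNBS_CEC, with a limma adjusted p of 0.877, and -1.53 ± 0.70 for DNBS_Nissle, with a limma adjusted p of 0.293.

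Ccr6, the receptor of Ccl20, read -3.65, -4.94, -6.25 and -6.10 in healthy samples 3 to 6 and -4.53, -6.04, -5.06 and -6.12 in DNBS samples 2 to 5. In DNBS_CEC samples 1, 2, 6 and 8 it read -5.72, -6.54, -5.84 and -5.71, the tightest of its groups. In DNBS_Nissle samples 1, 4, 5 and 7 it read -7.65, -8.41, -4.75 and -7.05. Samples 1, 4 and 7 of that group lay below every other sample of the study, and sample 5 lay among the highest. From high to low, the group means were -5.24 ± 1.21 in healthy, -5.44 ± 0.77 in DNBS, -5.95 ± 0.40 in DNBS_CEC and -6.97 ± 1.58 in DNBS_Nissle, and no neighbours in this order differed by more than the larger of their SDs. DNBS_Nissle differed from healthy by -1.73 ± 0.70, with a limma adjusted p of 0.232, and from DNBS by -1.53 ± 0.70, with a limma adjusted p of 0.975. Those comparisons share the DNBS_Nissle samples.

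Xcr1, the receptor of Xcl1 on dendritic cells that present antigen to cytotoxic T cells, had the largest group difference of the 6. It was at -2.53, -4.01, -4.90 and -4.73 in healthy samples 3 to 6, at -3.63, -5.58, -3.84 and -5.42 in DNBS samples 2 to 5, and at -4.74, -5.59, -4.18 and -4.90 in DNBS_CEC samples 1, 2, 6 and 8. In the DNBS_Nissle group samples 1, 4 and 7 were at -6.77, -7.28 and -6.99, below every other sample of the study, while sample 5 was at -3.59. The group mean was -6.16 ± 1.73 there and -4.04 ± 1.08 in healthy mucosa. The difference of -2.12 ± 0.75 (4.34-fold lower, interval -3.71 to -0.52) had a limma adjusted p of 0.183.

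A single sample decided the call for Ccr6 and Xcr1. Without DNBS_Nissle sample 5, both passed against healthy, at -2.47 with a limma adjusted p of 0.0466 for Ccr6 and at -2.97 with 0.0231 for Xcr1. Ccr9 was then at -2.27 with a limma adjusted p of 0.0538. Of 204 fits with another setting, this was the only one in which any receptor passed. Without healthy sample 3 and DNBS_Nissle sample 1, the samples with many filled values, the differences were -0.97 for Ccr6, -1.41 for Xcr1 and -0.62 for Ccr9, and no gene of the panel passed.

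Ccr8 marks regulatory and type-2 helper T cells and was read by 2 assays, both inside a single exon, whose values were averaged. It was at -4.30, -4.52, -7.11 and -6.03 in healthy samples 3 to 6 and at -4.88, -5.37, -5.35 and -6.24 in DNBS samples 2 to 5. The DNBS_CEC samples 1, 2, 6 and 8 were at -5.02, -7.10, -5.71 and -6.01. DNBS_Nissle samples 4, 5 and 7 were at -5.95, -4.47 and -8.06, and sample 1 was not detected by either assay, with Ct of 30.4 and 29.5. The means of healthy (-5.49 ± 1.33), DNBS (-5.46 ± 0.57), DNBS_CEC (-5.96 ± 0.87) and DNBS_Nissle (-6.88 ± 2.06) differed from their neighbours in order by less than the larger SD. DNBS_Nissle differed from healthy by -1.39 ± 0.84, with a limma adjusted p of 0.435, and by -0.67 without DNBS_Nissle sample 1. The assays gave -1.66 ± 0.89 and -1.12 ± 0.85 for it when fitted apart.

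Ccr3, the eotaxin receptor of eosinophils, was read by a single-exon assay, detected in 15 samples, and by an assay that spans an exon junction, detected in 13. By the rule for genes with several assays its level came from the first. That level was -3.87, -4.12, -7.40 and -5.45 in healthy samples 3 to 6 and -4.64, -5.10, -4.97 and -5.84 in DNBS samples 2 to 5. It was -5.41, -8.34, -6.05 and -5.81 in DNBS_CEC samples 1, 2, 6 and 8. It was -6.91, -3.12 and -6.04 in DNBS_Nissle samples 4, 5 and 7, with sample 1 at the limit. The groups overlapped throughout, with means of -5.21 ± 1.61, -5.14 ± 0.51, -6.40 ± 1.32 and -6.28 ± 2.45 in that order.

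The 2 Ccr3 assays gave opposite signs for the DNBS_Nissle group. The single-exon assay put it at -1.07 ± 1.02 from healthy and -1.14 ± 1.03 from DNBS, with limma adjusted p of 0.654 and 0.975. These values rest mostly on DNBS_Nissle sample 1, entered at the detection limit, and were -0.15 and -0.22 without it. The junction-spanning assay put it at 1.63 ± 0.83 and 1.72 ± 0.84, with limma adjusted p of 0.327 and 0.974. Its Ct was 28.1, 25.2, 27.7 and 27.4 in healthy samples 3 to 6, and 24.6, 23.4 and 26.7 in DNBS_Nissle samples 4, 5 and 7. The value of DNBS_Nissle sample 1, 24.9, was the one equal to the mean of the other 3. Leaving it out gave 1.67 ± 0.92 from healthy, with a limma adjusted p of 0.356. In DNBS sample 3, which the single-exon assay read at a Ct of 24.1, the other assay read 29.3, not detected.

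**Figure D2:**
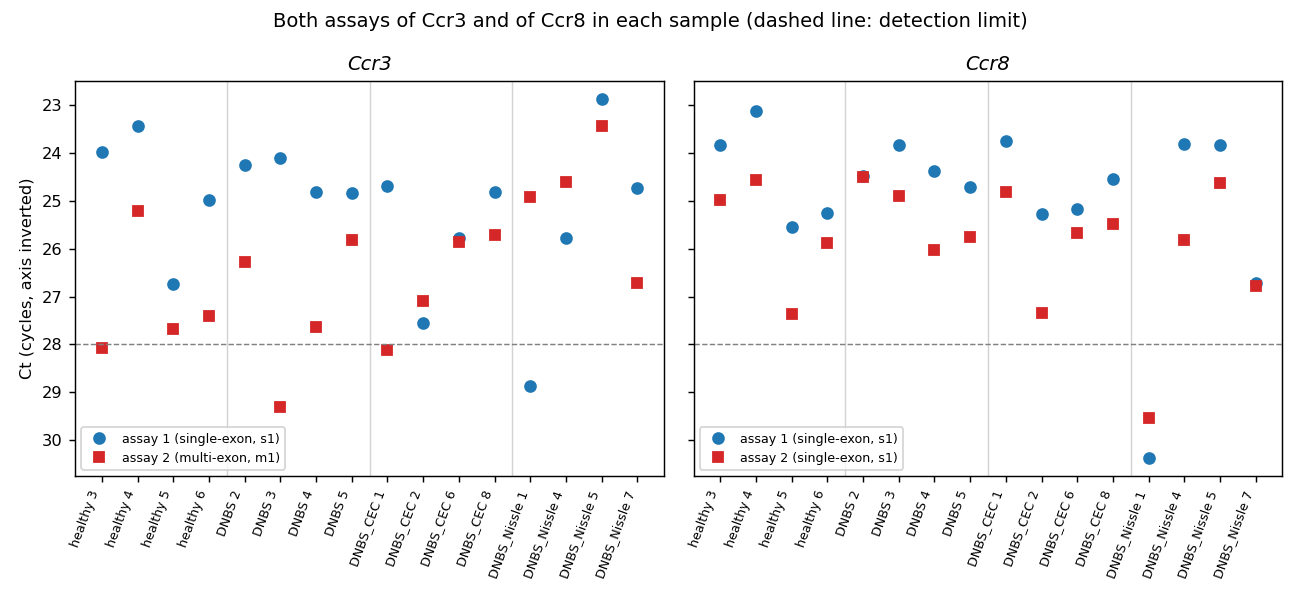
Ct of both assays of Ccr3 and both assays of Ccr8 (vertical axis in cycles, inverted so that more RNA is up) in each of the 16 samples; the dashed line is the detection limit at Ct 28. The assays of Ccr8 part most in DNBS_CEC sample 2 (25.3 against 27.4) and DNBS_Nissle sample 4 (23.8 against 25.8). Those of Ccr3 part most in DNBS sample 3 (24.1 against 29.3) and healthy sample 3 (24.0 against 28.1). Next come DNBS_Nissle sample 1 (28.9 against 24.9, the latter a filled value) and DNBS_CEC sample 1 (24.7 against 28.1).

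Read as a set, the receptors moved little with DNBS alone. In DNBS against healthy 3 of 6 had a lower mean (40.4% of all genes tested), and 1 of 6, Ccr1, had an unadjusted p under 0.05 (9.83% of genes). None passed after adjustment, where 0.218% of genes did. Their median difference was -0.06, against 0.12 over all genes tested. The difference of the other 5 receptors ran from -0.57 to 0.07, smaller than their SEs of 0.70 to 1.02.

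In DNBS_Nissle against healthy 5 of 6 were lower (58.1% of genes), and 4 of 6 had an unadjusted p under 0.05 (16.4% of genes). Of these, Ccr6, Ccr9 and Xcr1 were lower (7.42% of genes) and Ccr1 higher (8.95%). None passed after adjustment, where 2.18% of genes did. The median difference was -1.46, against -0.10 over all genes. In DNBS_Nissle against DNBS all 6 were lower (68% of genes) with a median of -1.40 against -0.18, and only Ccr6 had an unadjusted p under 0.05 (1.47% of genes). None of the receptors and 0% of genes passed there. The counts of lower receptors in both comparisons rest on the single-exon assay of Ccr3. The junction-spanning one put Ccr3 at 1.63 from healthy and 1.72 from DNBS. Ccr1 against DNBS, at -0.16, changed sign in 6 of 27 alternative fits.

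In DNBS_CEC against healthy 5 of 6 were lower (42.7% of genes), with a median of -0.76 against 0.07. No receptor had an unadjusted p under 0.05 (5.45% of genes) and none passed after adjustment (0% of genes). In DNBS_CEC against DNBS all 6 were lower (59.8% of genes), with a median of -0.73 against -0.11, and Ccr1 was the one with an unadjusted p under 0.05 (1.68% of genes). No receptor and 0% of genes passed after adjustment. The counts of lower receptors in both comparisons rest on the single-exon assay of Ccr3. Its junction-spanning assay put Ccr3 at 0.13 ± 0.83 from healthy and 0.21 ± 0.84 from DNBS. Between DNBS_CEC and DNBS_Nissle, 2 of 6 were lower in DNBS_CEC (36% of genes), Ccr1 and Ccr3. Ccr1 differed by -0.79 ± 0.37 and Xcr1 by 1.31 ± 0.76, both with a limma adjusted p of 0.976. Ccr1 alone had an unadjusted p under 0.05 (4.87% of genes) and no receptor passed (0% of genes).

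With the 3 DNBS groups as 1 set against healthy, 5 of 6 receptors were lower (48.7% of genes), and the median was -0.81 against 0.01. None had an unadjusted p under 0.05 (12.9% of genes) or passed after adjustment (1.97% of genes). Ccr1 was at 0.60 ± 0.30 and Xcr1 at -1.17 ± 0.62, with limma adjusted p of 0.384 and 0.401. Without healthy sample 3, Xcr1 was at -0.66. By its junction-spanning assay Ccr3 was at 0.56 ± 0.68, not lower. Detection differed in no comparison by the criterion of at least 3 of 4 samples in one group and at most 1 in the other, for which Fisher's exact test with 4 against 4 can go no lower than 0.0286.

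**Figure D3:**
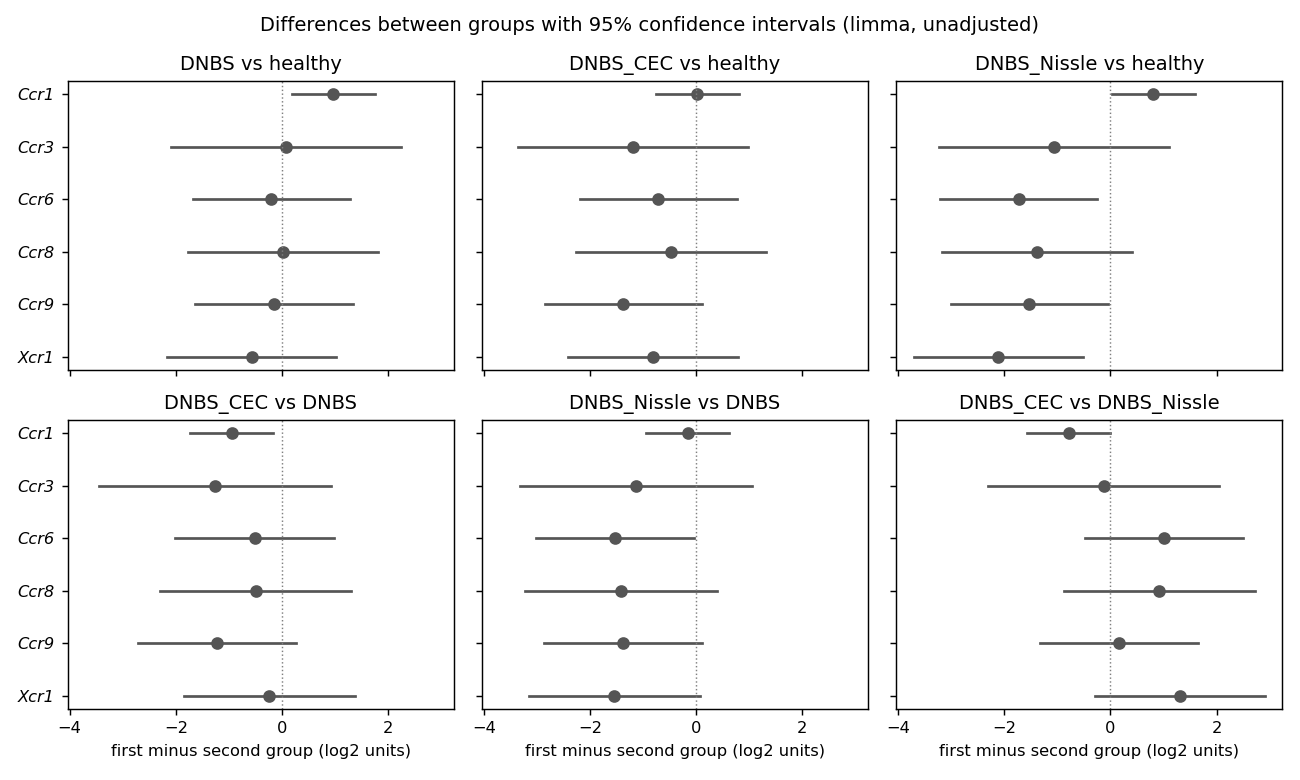
Difference of each receptor (first group minus second, log2 units, horizontal axis) in the 6 pairwise comparisons, with the 95% confidence interval of the limma fit before adjustment; the dotted line marks no difference. Ccr1 has the narrowest intervals, and in DNBS_Nissle against healthy Ccr1 lies right of the line while the other 5 lie left of it.

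Several chemokine receptor genes hold their coding sequence in a single exon, and 7 of the 8 receptor assays carry the suffix s1, which marks primers and probe inside 1 exon. Such an assay reads genomic DNA as well as complementary DNA, whereas one that spans an exon junction (m1) largely does not. Over the panel, 37 of 53 s1 assays (69.8%) had a median Ct between 23 and 26, against 152 of 526 m1 assays (28.9%). None of the s1 assays was undetected in all samples, while 42 of the m1 assays were. Of 7 genes with both kinds, 4 had a lower Ct by the s1 assay by over 1 cycle, Ccr3 among them (25.1 against 26.5, lower in 13 of 16 samples). For Lefty2 the s1 assay read 25.2 where the m1 assay gave no amplification in any sample, and for C3ar1 the order was the opposite, 24.0 against 22.1.

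A yardstick was taken from 7 type I interferon genes, of a family mostly without introns and all read by s1 assays: Ifna2, Ifna4, Ifna12, Ifna14, Ifnb1, Ifne and Ifnk. It was chosen after the data were seen. Their mean Ct was 24.1, 23.4, 25.6 and 24.2 in healthy samples 3 to 6, and 24.1, 24.0, 23.8 and 25.1 in DNBS samples 2 to 5. It was 24.4, 25.8, 25.5 and 24.2 in DNBS_CEC samples 1, 2, 6 and 8, and 26.6, 23.3, 23.7 and 25.3 in DNBS_Nissle samples 1, 4, 5 and 7. In -ΔCt this was -4.77 ± 1.06 in healthy, -4.88 ± 0.92 in DNBS, -5.68 ± 0.65 in DNBS_CEC and -5.65 ± 1.73 in DNBS_Nissle. DNBS_Nissle sample 1, where Ccr3 and Ccr8 were not detected, had the highest interferon Ct.

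All receptors but Ccr1 spread less within groups against this yardstick than against the reference genes, Ccr6 by little. Compared with the plain Ct, with nothing subtracted, only Ccr3 and Ccr8 spread clearly less against it. Their plain Ct had within-group SDs of 1.605 and 1.497. That of Ccr9 was 0.88, close to its SD against the yardstick. Ccr6, Xcr1 and Ccr1 had smaller SDs in plain Ct, at 0.83, 0.84 and 0.45. The drops for Ccr6, Ccr9 and Xcr1 therefore do not show that they followed the interferon Ct. For these comparisons all wells kept their deposited Ct, undetected ones included. In DNBS_Nissle sample 1 the undetected ones were Ccr3, both Ccr8 assays and 3 of the interferon genes (Ifna2, Ifna4 and Ifna12). With the interferon mean in place of the reference genes, the within-group SD went from 1.65 to 0.75 for Ccr8, from 1.76 to 1.04 for Ccr3, from 1.08 to 0.87 for Ccr9, from 1.18 to 1.02 for Xcr1 and from 1.08 to 1.04 for Ccr6. For Ccr1 it went from 0.48 to 1.10. Without DNBS_Nissle sample 1 the changes were from 1.23 to 0.51 for Ccr8 and from 1.46 to 1.06 for Ccr3. The SD became smaller in 4 of 370 m1 assays detected in every sample, and in 10 of 28 other s1 assays. The yardstick itself had within-group SDs of 0.65 to 1.73 in -ΔCt. An assay with a small starting SD, such as Ccr1, can hardly spread less against it. Median starting SDs were 0.61 for the m1 assays and 0.87 for the other s1 assays, so the counts do not compare assay types alone. The part that genomic DNA had in these Ct values was not tested.

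Since assays differ in efficiency, the gap between a receptor's Ct and the interferon mean was read only against that receptor's own average gap over the 16 samples. The widest departures were in DNBS_Nissle samples 4 and 1. In sample 4, where the interferon Ct was the lowest of the 16, the gap was wider than average by 3.29 cycles for Ccr6, 3.15 for Xcr1, 2.28 for Ccr9 and 1.88 for Ccr3, and by 0.66 for Ccr8. This was also the sample with the low Krt8 level. In sample 1 it was wider by 2.58 for Ccr8 and 1.75 for Ccr3, both undetected there, and differed by -2.81 for Ccr1. With the interferon genes as the reference, and receptor wells above Ct 28 set to 28 while the interferon mean kept its deposited Ct, DNBS_Nissle differed from healthy by -0.85 for Ccr6, -1.23 for Xcr1, -0.64 for Ccr9 and 1.69 for Ccr1, and no receptor passed. On that reference DNBS_CEC was not lower for Ccr6, Ccr8 and Xcr1, at 0.20, 0.45 and 0.10 from healthy. The same receptors were at 0.29, 0.31 and 0.57 from DNBS. Ccr3 and Ccr9 stayed negative, at -0.28 and -0.46 from healthy and -0.46 and -0.42 from DNBS. Ccr1 was at 0.93 and -0.14.

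**Figure D4:**
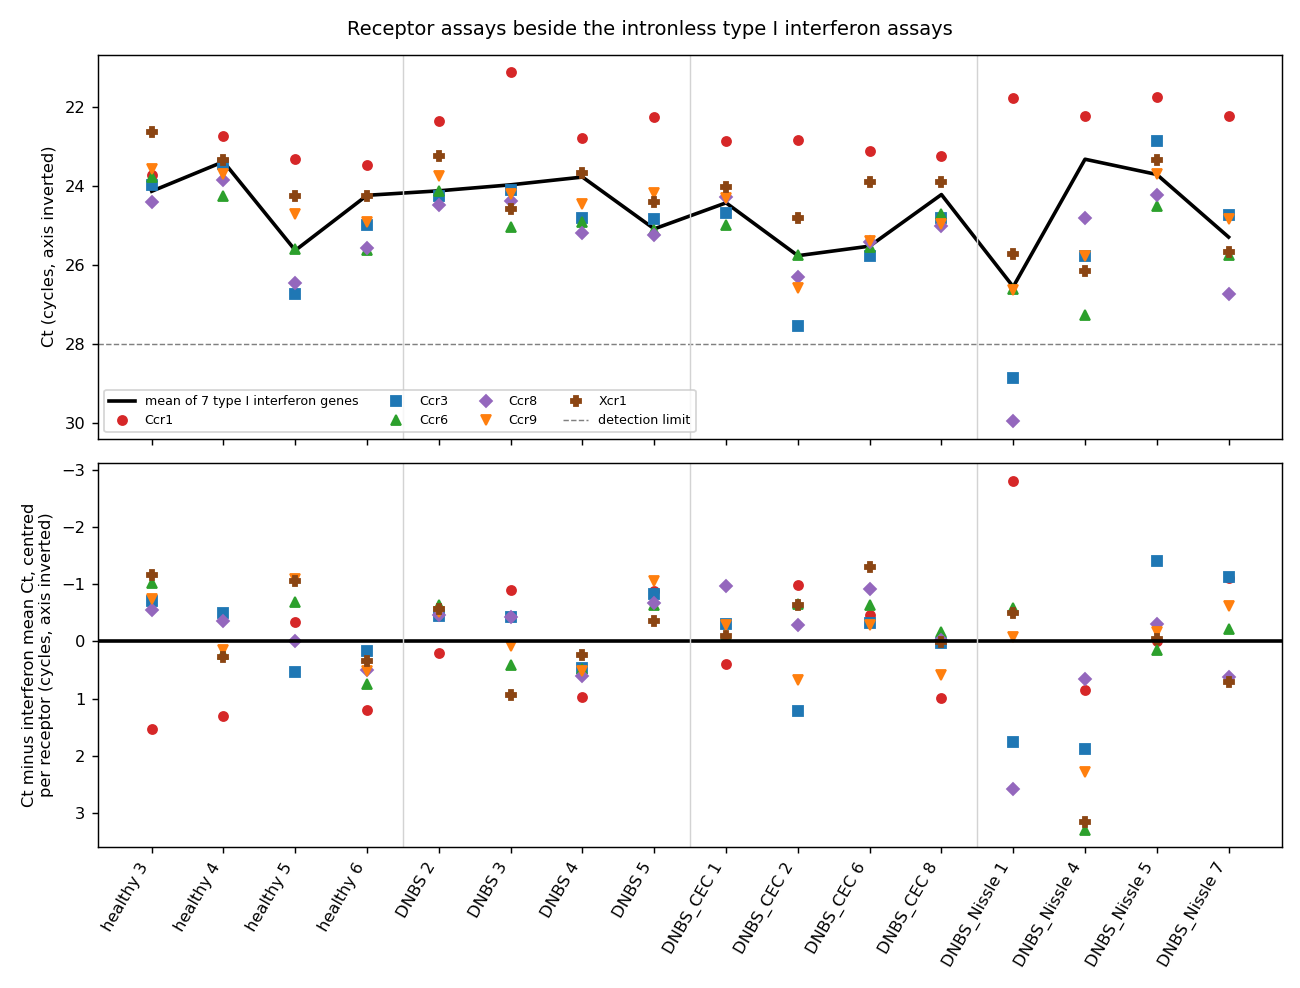
Upper panel: deposited Ct of the 6 receptors (points) and mean Ct of the 7 type I interferon genes (line) in each sample, on an inverted axis in cycles, with the detection limit dashed. Lower panel: receptor Ct minus the interferon mean, centred on each receptor's own average over the 16 samples (0, black line); the widest departures are those of Ccr6 and Xcr1 in DNBS_Nissle sample 4 (3.29 and 3.15 cycles).

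The other genes read by s1 assays, which include the 7 interferon genes, were lower on balance in the treated groups. All 7 interferon genes were lower than in healthy in both DNBS_Nissle and DNBS_CEC, so the counts partly repeat the yardstick. Of 37 such genes tested in DNBS_Nissle against healthy, 32 were lower, with a median of -0.54, and of 39 in DNBS_CEC against healthy 33 were lower, with a median of -0.55. For genes read by m1 assays the medians were -0.02 over 367 genes and 0.12 over 365. The medians of the 6 receptors in these comparisons were -1.46 and -0.76. The difference between assay types was not tested.

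The ligands of the 6 receptors are read by junction-spanning assays, except for 1 of those of Ccl7. On the panel were 11, of which 10 could be tested, Ccl1 being detected in 1 of 16 samples. None passed in any comparison, and 2 of 10, both ligands of Ccr1, had an unadjusted p under 0.05 in DNBS_Nissle against healthy (16.4% of all genes tested), as did 3 of 10 with the 3 DNBS groups as 1 set against healthy (12.9%). Among the ligands of Ccr1, Ccl3 was at 3.06 ± 1.49 and Ccl7 at 1.88 ± 0.95 in DNBS against healthy, and at 3.84 ± 1.49 and 2.98 ± 0.95 in DNBS_Nissle against healthy (limma adjusted p 0.505, 0.537, 0.213 and 0.13). Ccl5 and Ccl6 lay between -0.44 and 0.50 in those comparisons, apart from Ccl6 at -0.59 in the latter.

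The eotaxins that bind Ccr3 had their highest means in the DNBS_Nissle group. Ccl24 read -5.54, -6.10, -4.68 and -4.94 in DNBS_Nissle samples 1, 4, 5 and 7 and between -6.94 and -6.10 in the DNBS samples, so that these groups touched at -6.10. The difference was 1.26 ± 0.46, with a limma adjusted p of 0.975. Ccl11 was at 1.07 ± 0.59 from healthy, with a limma adjusted p of 0.358.

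Ccl25, the ligand of Ccr9, had a mean of -4.35 ± 0.82 in healthy mucosa and of -5.28 ± 0.50, -5.35 ± 1.0 and -5.40 ± 0.86 in DNBS, DNBS_CEC and DNBS_Nissle. The 3 DNBS groups together differed from healthy by -0.99 ± 0.45, with a limma adjusted p of 0.334. Ccl20, the ligand of Ccr6, was at -1.05 ± 0.71 and Xcl1, the ligand of Xcr1, at -0.80 ± 0.58 in DNBS_Nissle against healthy, with limma adjusted p of 0.509 and 0.532. Ccl8, a ligand of Ccr8, was at -0.81 ± 0.96, with a limma adjusted p of 0.753.

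Of 14 other chemokine receptors listed from the panel, Il8rb (Cxcr2), the neutrophil receptor for Cxcl chemokines, rose in DNBS_Nissle against healthy by 4.27 ± 0.79, with a limma adjusted p of 0.0101, although no gene passed without healthy sample 3. It was the one of 14 that passed there (2.18% of all genes tested), and 9 of 14 were lower (58.1% of genes), with a median of -0.19. The others read by s1 assays alone, Ccrl1, Cx3cr1, Cxcr6 and Cxcr7, were at -1.30, -1.19, -1.03 and -1.38. Receptors read by m1 assays alone, apart from Il8rb, lay nearer 0, at -0.29 for Ccr2, -0.20 for Cmklr1, -0.17 for Ccr7 and 0.09 for Cxcr4, with Ccr4 between the last 2 values. None of these 9 passed.

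The panel held few cell type markers, and none listed for B cells, muscle or fibroblasts. For neutrophils, 3 of 4 markers tested passed in DNBS_Nissle against healthy (2.18% of all genes tested), with a median of 5.88. Il8rb, named above, was 1 of them, and no gene of the panel passed without healthy sample 3. The mean level of the 5 on the panel ranged from -2.31 to -1.26 in DNBS_Nissle and from -7.45 to -6.59 in healthy. That mean includes Camp, which was detected in no healthy sample and entered there at the detection limit. For macrophages and monocytes none of 3 passed, and the range was -2.60 to -1.24 against -2.72 to -2.02. For eosinophils, Prg2 and Il5ra ranged from -8.30 to -7.16 against -7.96 to -7.28, with Il5ra detected in 6 of 16 samples, and Prg2, the one that could be tested, was at -0.20. Of the mast cell markers, Fcer1a was detected in 1 of 16 samples and Kit was at -0.87. For T cells none of 3 passed, at -7.71 to -6.24 against -6.60 to -5.82. Cd28 and Cd4 were lower than in healthy, at -1.26 and -0.88, and Icos was higher, at 0.48. The dendritic cell marker Ly75 was at -0.63. The part that these cells had in the receptor values was not tested.

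Among 409 genes detected in every sample, the nearest profiles were sought by the mean absolute difference between centred -ΔCt values over the 16 samples. The nearest to Ccr1 were Itgb2, the beta chain of leukocyte integrins, at 0.35, and the cytokine genes Il33 and Il1rn at 0.36 each. None of its 20 nearest genes was read by an s1 assay, where 29 of the 409 were. The measure is not scaled, so a gene of small spread such as Ccr1 lies nearest to others of small spread. A flat profile would lie 0.48 from Ccr1, so its count does not show a shared pattern. Among the 3 nearest to Ccr6 and to Ccr9 was the chemokine receptor Cxcr6 (0.36 and 0.43), with the joint Lefty1 and Lefty2 assay at 0.44 for Ccr6 and S1pr1 at 0.49 for Ccr9. Among the 3 nearest to Xcr1 were Cxcr6 and Tlr12, at 0.45 and 0.55.

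For Ccr8 the nearest were Tlr12, Scn9a and Il8ra at 0.32, 0.40 and 0.47, and for Ccr3 Scn9a, S1pr1 and Tlr12 at 0.58, 0.59 and 0.60. Of the 20 nearest genes, s1 assays read 14 for Ccr3, 13 each for Ccr6 and Ccr8, 12 for Ccr9 and 11 for Xcr1. Among the receptors themselves Ccr6 and Xcr1 were closest, at 0.27, and Ccr1 stood 0.93 to 1.14 from the other 5. These likenesses share the reference genes and, for the s1 assays, the assay type. They also depend on the spread of each gene and are given as a description. All but Ccr6 lie on chromosome 9, and Ccr6 lies on chromosome 17, in the RefSeq annotation of GRCm38.p6.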

How the data were processed

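The authors deposited raw Ct values, with no normalization, for 648 assays in 16 samples, 4 per group by the labels. Their unit (other) is PCR cycles, and 40 stands for no amplification. The RNA came from a kit extraction with an average integrity number above 9, per the labels' protocols. The thresholding software, and any step against genomic DNA, are not given in the sources used here. Within 2e-06, 194 values matched the average of their group's other 3 samples (filled values), and 532 had 4 or fewer decimals; these numbered 1 and 6 of the 128 receptor values. Both were kept, and left out as alternatives.

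From these, -ΔCt was computed with 13 reference genes (19 assays), among them Actb, Gapdh, Hprt1 and Tbp. Some reference and other genes are not reported here. Wells above Ct 28 were set to 28. For the 50 genes with several assays, those detected in most samples were averaged. Testing required detection in 3 or more of the 4 samples per group (9 of 12 for the 3 DNBS groups). A single limma model (version 3.58.1, R 4.3.3; lmFit, eBayes) held all 16 samples and left 12 residual degrees of freedom, and p-values were adjusted by Benjamini-Hochberg within each comparison. The code was tested on simulated data. Depth, as template molecules per well, is unknown, and no interval for counting error can be given. Receptors, ligand and marker lists, and named genes (the receptors, their 3 nearest profiles, their ligands, other chemokine receptors of the panel and markers) were chosen with earlier results of these data known. The lists of interferon genes and of assay types were added later. Replicate numbers were not taken to pair the samples: of 10 same-numbered pairs, 4 deviated together (correlation over 0.1), from -0.48 to 0.31. With no differently numbered pairs set beside them, this cannot exclude a shared batch. Alternatives covered the reference genes, normalization, detection limit, treatment of undetected wells, filter, assay choice, filled and short values, samples left out and a replicate block.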

Additional observations from a re-analysis of the deposited data

Results flagged for a closer look

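Of 40 groups of 4 samples examined, 2 held a sample whose gap to the next exceeded Dixon's critical value at the 95% level, where chance flags about 1 in 20. Xcr1 in DNBS_Nissle sample 5 was at -3.59, with the other 3 samples between -7.28 and -6.77. Ccr6 in DNBS_CEC sample 2 was at -6.54, with the others between -5.84 and -5.71.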

How the results depend on the processing

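Over 36 alternatives, 1079 of 1165 refitted receptor differences kept their sign. The differences of Ccr6, Ccr8, Ccr9 and Xcr1 in DNBS_Nissle against healthy and against DNBS stayed negative in every fit. Receptors passing in DNBS_Nissle against healthy numbered 0 to 2 when samples were left out. Ccr1 in DNBS_CEC against healthy (0.02) was -0.046 with all endogenous controls, -0.33 with the 3 least variable reference genes, -0.15 with Gapdh, -0.09 with the global mean, -0.16 after quantile normalization, -0.021 without short values, -0.22 without Rplp2 and Ywhaz, and -0.087 to 0.20 with samples left out. Ccr1 in DNBS_Nissle against DNBS (-0.16) was 0.060 with Gapdh, 0.030 with the global mean, 0.61 against the interferon genes and -0.48 to 0.053 with samples left out. Ccr3 in DNBS_Nissle against healthy and DNBS (-1.07 and -1.14) was 0.48 and 0.75 after quantile normalization, 0.18 and 0.34 with a limit of 30 or any Ct under 40, and 1.63 and 1.72 with the junction-spanning assay. The first was 0.30 without healthy sample 3 and DNBS_Nissle sample 1. With a limit of 30 or any Ct under 40, both Ccr3 assays (highest Ct 28.9 and 29.3) were detected in every sample and averaged. The values under these limits therefore include the junction-spanning assay and do not show the effect of the limit alone.

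Genes passing in DNBS against healthy (1) numbered 0 with the 3 least variable reference genes, the global mean, quantile normalization, any Ct under 40, or without those samples. They numbered 4 with Gapdh, 5 with undetected wells missing, 7 when only the groups compared were fitted, 2 against the interferon genes and 0 to 6 with samples left out. In DNBS_Nissle against healthy (10) they numbered 17 after quantile normalization, 4 with a limit of 26, 20 in the compared groups alone, 0 without both samples and 0 to 11 with samples left out. In all DNBS against healthy (9) they numbered 15 after quantile normalization, 5 without filled values, 0 without both samples and 0 to 11 with samples left out. In DNBS_CEC against healthy samples left out gave 0 to 1, and a limit of 30 gave 1 in DNBS_CEC against DNBS_Nissle. Fitting with a replicate block, though the numbers were not taken to pair the samples, gave 2, 0 and 0 genes in the first 3 comparisons named. It gave 0.22 for Ccr1 in DNBS_Nissle against DNBS. Apart from the change in the Ccr3 assays used, the cause of these shifts was not tested. The references with interferon genes or without Rplp2 and Ywhaz, and the second Ccr3 assay, were chosen after seeing the data. The detection limit bounds Ccr3 and Ccr8 in DNBS_Nissle sample 1, and 4 samples per group limit the precision.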
